A study of Amphimedon queenslandica with 144 samples.

Results

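The comparison described here set 9 swimming larvae of the demosponge Amphimedon queenslandica that had met Amphiroa fragilissima, an articulated coralline alga, called exposed larvae below, against 9 swimming larvae of the same age kept in filtered seawater alone. These 18 animals, of 144 in the whole study, were chosen by their labels: all were offered their cue 3 h after they emerged from the mother, stayed with it for 2 h and were collected at an age of 5 h while still swimming. Each larva had its own well and its own barcode, so each value belongs to 1 individual. Transcripts were counted by CEL-Seq2, a method that tags polyadenylated molecules near their 3' end with a barcode for the animal and a short random sequence, so that copies made by amplification are counted once. The other groups drawn on below included 9 larvae given the crustose coralline alga Mesophyllum sp. at 3 h. Further larvae were given A. fragilissima or seawater at 1.5, 5 and 8 h (9 a group). They were collected at 3.5, 7 and 10 h of age. The last were 27 settled animals, given either alga at 5 or 8 h, set against the 36 larvae that still swam in those treatments. Larvae that had settled within the 2 h are not among the exposed 9, and the study had too few settled animals at this age to form a group. A change caused by the alga and the removal of the larvae that settled first can therefore not be told apart here.

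Larvae of this sponge are brooded, leave the mother as ciliated swimmers and pass through a time in which they become able to settle and metamorphose. Coralline algae are known inducers of that step in many marine invertebrates, including this sponge. The comparison asks which transcripts respond to an inductive alga before the larva has attached. Transcripts are given by their gene model identifiers, because the counts carry no gene names and their identifiers matched no entry of the RefSeq gene table for the species. No role can be given to any of them, and the label of the animals could not be checked against marker genes.

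Exposed larvae yielded fewer counts than seawater larvae. Totals were 817074 to 2053050 counts (mean 1518185 ± 344556, SD, n = 9) in larvae with A. fragilissima, against 1197949 to 2968501 (mean 2105717 ± 557311, SD, n = 9) in seawater larvae, a difference of -587532 counts (exact permutation test, 2-sided, p = 0.0165, not adjusted for other groups). With larvae exchanged only within the sequencing libraries that held both groups, the difference was -679383 counts (exact permutation p = 0.0311). The number of features detected was 17930 ± 1057 in exposed larvae and 18459 ± 1081 in seawater larvae (SD, n = 9 each), a gap within the spread between larvae (exact permutation p = 0.319). The cause of the lower totals was not tested. For single transcripts in bulk RNA from a whole larva, fewer cells of one kind and less RNA per cell cannot be told apart. Libraries carried the labels T, K and C. The exposed larvae were spread evenly, 3 in each, whereas 4 seawater larvae were in T, 5 in K and 0 in C. Library was therefore a term of the model, and results that rest on the 3 exposed larvae of library C are given without them too.

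Between larvae kept with A. fragilissima and larvae in seawater, 180 of the 14950 features tested differed, 1.2%, at an adjusted p below 0.05 (quasi-likelihood F test of edgeR with Benjamini-Hochberg adjustment over all features). Of these, 95 were higher and 85 lower in exposed larvae. The count depended on the fit: swimming larvae alone gave 393 (184 higher, 209 lower), DESeq2 284 (168 higher, 116 lower), and the 18 larvae alone 138, of which 77 were among the 180. Without adjustment, 1838 features had a p below 0.05. The lists differed in shape. The 95 risen features had log2 fold changes of 0.40 to 7.40 with a median of 1.12, with 55 at least 2-fold and 21 at least 4-fold higher. The 85 fallen features had -6.53 to -0.33 with a median of -0.65, with 18 at least 2-fold and 10 at least 4-fold lower. Over all features tested the median was -0.02. The fallen list also had more counts behind it: its median feature stood at 185 CPM, against 58.7 CPM in the risen list and 13.1 CPM over all tested (CPM, counts put on 1 common scale by the scaled library total; mean of the larvae). With total count as a covariate 154 features were called, 129 of them among the 180. Without the exposed larvae of library C there were 156 calls, 112 of them shared, with 63 higher and 93 lower. Leaving out exposed larva 6 reduced the count most, to 119.

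**Figure D1:**
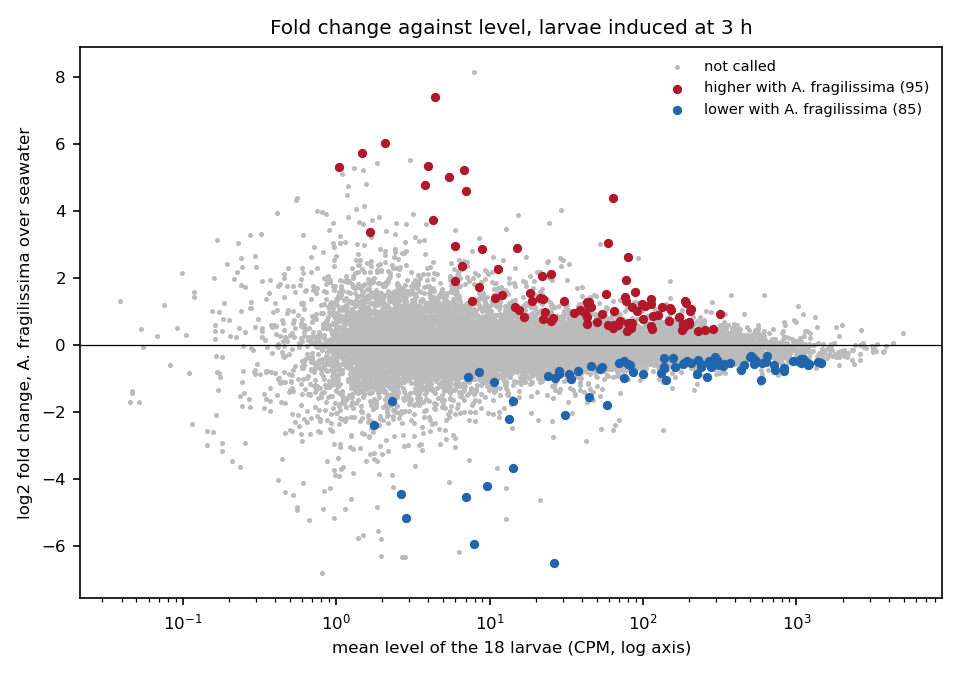
Log2 fold change (A. fragilissima over seawater, vertical axis) against the mean level of the 18 larvae in CPM (horizontal log axis) for the 14950 features tested, each a dot; red dots are the 95 features higher and blue dots the 85 lower in exposed larvae at an adjusted p below 0.05. Most blue dots lie close to the zero line at high levels, while red dots spread further up at middle and low levels.

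Within the single libraries the directions were kept by nearly all members. In library T, with 3 exposed and 4 seawater larvae, 91 of 95 risen and 83 of 84 fallen features tested there had the sign of the whole comparison, with medians of 1.05 and -0.77. In library K, with 3 exposed and 5 seawater larvae, all 92 risen and all 82 fallen features tested there had it, with medians of 1.02 and -0.67. These larvae are part of the 18 that chose the lists, so the signs describe how evenly the change was spread and are no separate evidence. Calls within one library were few, 14 in T and 37 in K, of which 12 and 21 were among the 180. In each of the 18 fits that left out 1 larva, 45 of the risen and 32 of the fallen features stayed past the threshold.

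A full separation of the 9 exposed from the 9 seawater larvae was seen in 35 of all features tested (0.234%), among them 19 of the 95 risen and 4 of the 85 fallen features. The clearest of the risen transcripts were of this kind. Aqu2.1.42730_001 ranged from 13.8 to 71.1 CPM (median 35.9) in larvae with A. fragilissima, against 6.38 to 13.3 CPM (median 7.91) in seawater larvae. Every exposed larva thus lay above every seawater larva, if barely for exposed larva 14. Its log2 fold change was 2.05 ± 0.32 (SE; adjusted p = 1.39e-05, edgeR), or 2.40 within library T and 1.63 within library K. For Aqu2.1.35485_001 the exposed larvae covered 103 to 169 CPM (median 113), against 31.1 to 93.2 CPM (median 38.8) in seawater larvae. Seawater larva 9, with 93.2 CPM, stood well above the other 8, which reached at most 55.4 CPM, yet remained below the lowest exposed larva. The log2 fold change was 1.58 ± 0.24 (SE; adjusted p = 5.47e-06, edgeR), or 1.88 within library T and 1.22 within library K.

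The smallest p of all belonged to Aqu2.1.20847_001. It had 140.5 to 266 CPM (median 189) in exposed larvae and 72.4 to 130.1 CPM (median 105) in seawater larvae, without overlap. On average exposed larvae had 195 ± 43.3 CPM and seawater larvae 103 ± 17.8 CPM (SD, n = 9 each). The log2 fold change came to 1.10 ± 0.16 (SE; adjusted p = 1.81e-06, edgeR), or 1.17 within library T and 0.95 within library K. Aqu2.1.11527_001 followed it closely, with 132 to 233 CPM (median 167) in exposed larvae and 67.9 to 147 CPM (median 83) in seawater larvae. Here 7 of 9 exposed larvae lay above every seawater larva, and the log2 fold change was 1.12 ± 0.17 (SE; adjusted p = 5.47e-06, edgeR). From larva to larva the ratio of the first of these transcripts to the other stayed between 0.991 and 1.21 in exposed larvae and between 0.886 and 1.4 in seawater larvae. Whether the gene models share reads was not tested.

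The best counted risen transcripts moved by less than 2-fold. Aqu2.1.41895_001 had 342 to 577 CPM (median 399.7) in exposed larvae, against 120.4 to 285 CPM (median 215) in seawater larvae, again without overlap (log2 fold change 0.93 ± 0.16, SE; adjusted p = 0.000105, edgeR). Aqu2.1.43432_001 averaged 332 ± 41.7 CPM in exposed larvae and 239 ± 47.6 CPM in seawater larvae (SD, n = 9 each; log2 fold change 0.48 ± 0.11, SE; adjusted p = 0.00582, edgeR). In this transcript 8 of 9 exposed larvae lay above the highest seawater larva. The call was lost without a filter on low counts (adjusted p = 0.0566, edgeR) and in a fit to the 18 larvae alone (adjusted p = 0.0948, edgeR).

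**Figure D2:**
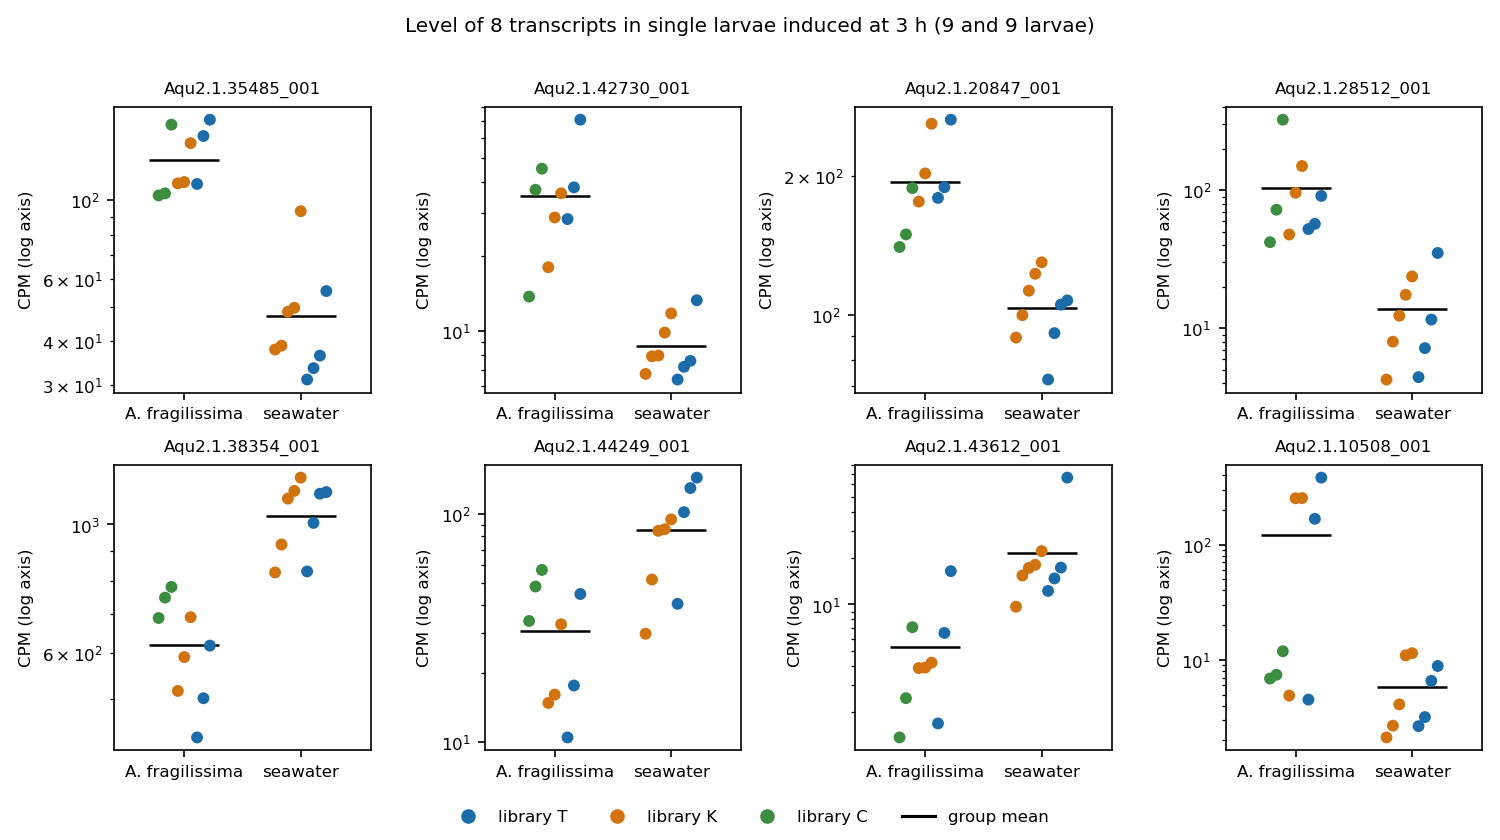
Level in CPM (vertical log axis, scaled to each panel) of 8 transcripts in each of the 9 larvae with A. fragilissima (left) and the 9 in seawater (right); a dot is 1 larva, coloured by library, and the bar is the mean of the group. In the panels of Aqu2.1.35485_001, Aqu2.1.42730_001, Aqu2.1.20847_001 and Aqu2.1.28512_001 every exposed larva lies above every seawater larva, in that of Aqu2.1.38354_001 every one lies below, and in that of Aqu2.1.10508_001 4 exposed larvae stand far above the rest.

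The largest fold changes came from transcripts that were high in some exposed larvae only. Of the 21 features that rose at least 4-fold, 12 were without a count in 1 or more of the exposed larvae. Aqu2.1.28512_001 was an exception, with 42.1 to 325 CPM (median 72.3) in exposed larvae against 4.25 to 35.1 CPM (median 11.6) in seawater larvae, a mean 7.52-fold higher (log2 fold change 3.04 ± 0.80, SE; adjusted p = 0.0254, edgeR). Its groups did not overlap, but the threshold was missed without exposed larva 13 (adjusted p = 0.0696, edgeR), without seawater larva 1, 5, 6 or 8 (up to 0.0563, edgeR), without the larvae of library C (0.095, edgeR) and without the low-count filter (0.0749, edgeR). Exposed larva 13 alone reached 325 CPM. Aqu2.1.36489_001, picked out after its values were seen, separated the groups as fully, with 75.1 to 211 CPM (median 131) in exposed larvae against 3.16 to 48.4 CPM (median 28.6) in seawater larvae. Its log2 fold change was 2.63 ± 0.58 (SE; adjusted p = 0.00529, edgeR) and stayed past the threshold whichever larva was left out, with an adjusted p of at most 0.0168 in edgeR.

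Aqu2.1.37223_001 had 0 to 29.1 CPM (median 4.82) in larvae with A. fragilissima, of which 8 had counts, against 0 to 1.06 CPM (median 0) in seawater larvae, of which 2 had counts (log2 fold change 5.33 ± 1.15, SE; adjusted p = 0.0043, edgeR). Aqu2.1.26847_001 had counts in all 18 larvae, with 2.58 to 27.9 CPM (median 7.03) in exposed and 0.421 to 2.99 CPM (median 1.34) in seawater larvae (log2 fold change 2.94 ± 0.66, SE; adjusted p = 0.00576, edgeR). In both, most exposed larvae lay above all seawater larvae, 7 and 8 of 9. Aqu2.1.27111_001 was counted in all 9 exposed larvae, with 0.689 to 71.2 CPM (median 2.58), and in 4 of 9 seawater larvae, with 0 to 3.19 CPM (median 0) (log2 fold change 4.59 ± 0.92, SE; adjusted p = 0.00136, edgeR). Only exposed larvae 6, 9 and 13 exceeded the highest seawater larva in it, and the fold change was 1.28 within library T and 4.72 within library K. Without the exposed larvae of library C its log2 fold change was 3.55 (adjusted p = 0.0191, edgeR). DESeq2 gave no adjusted p for Aqu2.1.37223_001, Aqu2.1.26847_001 or Aqu2.1.27111_001. Aqu2.1.43680_001 had 0 to 22.6 CPM (median 6.54) in exposed larvae against 0 to 2.13 CPM (median 0.822) in seawater larvae (log2 fold change 3.71 ± 0.93, SE; adjusted p = 0.0175, edgeR). Its call was lost without exposed larva 13 (adjusted p = 0.0574, edgeR), without the larvae of library C (0.0518, edgeR) and with total count as a covariate (0.0587, edgeR).

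The remaining named risen transcripts were counted in 5 of 9 exposed larvae each. Aqu2.1.01759_001 had 0 to 35.6 CPM (median 1.56) with A. fragilissima, and 1 of 9 seawater larvae had 0.421 CPM while the other 8 had 0 (log2 fold change 7.40 ± 1.79, SE; adjusted p = 0.0131, edgeR). Without the larvae of library C, which held its highest 2 values, the adjusted p was 0.115 in edgeR. DESeq2 gave no adjusted p for Aqu2.1.01759_001. Aqu2.1.31656_001 had 0 to 51.5 CPM (median 1.29) in exposed larvae against 0 to 1.34 CPM (median 0) in seawater larvae (log2 fold change 5.00 ± 1.29, SE; adjusted p = 0.022, edgeR). Leaving out exposed larva 4, exposed larva 9 or seawater larva 1 ended that call, with adjusted p of 0.101, 0.0548 and 0.0518 in edgeR, as did the lack of a low-count filter (0.0585). In 3 more risen features no seawater larva had a count. These were Aqu2.1.16499_001, Aqu2.1.10237_001 and Aqu2.1.16336_001, named here after their values were seen. With 44 counts in 3 exposed larvae, 43 in 2 and 35 in 4, their levels were at least 19.6-fold, 19.2-fold and 15.6-fold higher with A. fragilissima, taking 3 counts over the 9 seawater larvae as the floor. Such bounds cover counting error only.

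Aqu2.1.10508_001 was high in some exposed larvae and low in others. Such a split was not particular to it. Aqu2.1.06371_001, described below, stood at 239 and 223 CPM in seawater larvae 1 and 6 and at most at 0.879 CPM in the rest. In the 9 larvae with A. fragilissima it stood at 381, 253, 252 and 167 CPM in 4 and at 4.52 to 11.9 CPM in the other 5, against 2.13 to 11.4 CPM in seawater larvae. The exposed larvae thus fell into a high and a low set with nothing between, and the low set overlapped the seawater larvae. The log2 fold change was 4.40 ± 0.997 (SE; adjusted p = 0.0059, edgeR). Over all 144 animals, 11 had more than 100 CPM and 123 had at most 20 CPM, which left 10 between. Besides the 4 exposed larvae, the high ones were 1 of 9 with A. fragilissima at 5 h, 1 of 9 with Mesophyllum sp. at 1.5 h, 1 of 9 with it at 3 h and 1 of 9 with it at 8 h, and 1 of 9 seawater larvae at each of 1.5, 5 and 8 h. The highest value of all, 419 CPM, was in a seawater larva of the 1.5 h group. High larvae of this transcript thus occurred with each cue, and none of the 27 settled animals was among them. Since only 11 of 144 animals were high, and several swimming groups held none either, nothing is read from that absence. The limits of 20 and 100 CPM were set after the values were seen.

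Several fallen features with a small p were well counted and moved by about 2-fold or less. Aqu2.1.38354_001 had 429 to 780.1 CPM (median 618) in exposed larvae against 826 to 1205 CPM (median 1109) in seawater larvae, so that every exposed larva was lower than any seawater larva (log2 fold change -0.69 ± 0.14, SE; adjusted p = 0.00118, edgeR; -0.996 within library T and -0.79 within library K). Aqu2.1.31166_001 had 47.6 to 102 CPM (median 78.5) in larvae with A. fragilissima, against 64.2 to 162 CPM (median 127) in seawater larvae (log2 fold change -0.87 ± 0.16, SE; adjusted p = 0.000675, edgeR). The groups overlapped, with 3 exposed larvae under the lowest seawater larva. Aqu2.1.16116_001 averaged 49.4 ± 18.6 CPM in exposed and 101 ± 26.4 CPM in seawater larvae (SD, n = 9 each; log2 fold change -0.99 ± 0.19, SE; adjusted p = 0.000677, edgeR). Aqu2.1.40981_001 averaged 379 ± 110.1 CPM in exposed and 791 ± 259 CPM in seawater larvae (SD, n = 9 each; log2 fold change -1.06 ± 0.21, SE; adjusted p = 0.00118, edgeR). In a fit to the 18 larvae alone these last 2 had adjusted p of 0.085 and 0.0835 in edgeR.

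At the top of the count scale, Aqu2.1.34860_001 averaged 1170.3 ± 219.9 CPM in exposed and 1715 ± 254 CPM in seawater larvae (SD, n = 9 each; log2 fold change -0.56 ± 0.13, SE; adjusted p = 0.0059, edgeR). The 3 exposed larvae of library C were its highest exposed larvae, and without them the log2 fold change was -0.73. Aqu2.1.26016_001 averaged 1159.8 ± 229 CPM in exposed and 1624 ± 250.4 CPM in seawater larvae (SD, n = 9 each; log2 fold change -0.51 ± 0.13, SE; adjusted p = 0.0186, edgeR). The threshold was missed without exposed larva 1, 4 or 6 or seawater larva 7 (adjusted p up to 0.0564, edgeR) and in a fit to the 18 larvae alone (0.0507, edgeR). Both, and Aqu2.1.40981_001, were among the 183 features with a count above 50% of the highest count in the table in some animal. That highest count was shared by 39 values, as a ceiling on the number of random sequences would give, and counts near a ceiling are compressed. Such features made up 11 of the 85 fallen (12.9%) and 0 of the 95 risen features, against 1.22% of all tested.

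The largest falls were uneven in their support. Aqu2.1.44249_001 had 10.5 to 57 CPM (median 32.9) in exposed larvae, against 29.9 to 145 CPM (median 86.1) in seawater larvae (log2 fold change -1.81 ± 0.35, SE; adjusted p = 0.00111, edgeR; -2.10 within library T and -1.70 within library K). Aqu2.1.43612_001 had 1.38 to 16.4 CPM (median 3.9) in exposed larvae, against 9.67 to 66.4 CPM (median 17.2) in seawater larvae (log2 fold change -2.22 ± 0.42, SE; adjusted p = 0.000751, edgeR), and 8 of 9 exposed larvae lay below every seawater larva. These held their calls whichever larva was left out, although the last had an adjusted p of 0.0648 in edgeR when the 18 larvae were fitted alone. Aqu2.1.25555_001 averaged 26.6 ± 20.1 CPM in exposed and 62.9 ± 26.2 CPM in seawater larvae (SD, n = 9 each; log2 fold change -1.56 ± 0.39, SE; adjusted p = 0.0155, edgeR), with adjusted p in edgeR of 0.102 without the library term and 0.0529 with total count as a covariate. Aqu2.1.28795_001 averaged 7.43 ± 3.67 CPM in exposed and 21.1 ± 14.1 CPM in seawater larvae (SD, n = 9 each; log2 fold change -1.67 ± 0.41, SE; adjusted p = 0.0135, edgeR). Its adjusted p was 0.0656 without seawater larva 1, 0.142 without the larvae of library C, 0.182 in the 18 larvae alone and 0.0518 with total count as a covariate (edgeR).

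Several of the remaining falls depended on 1 or 2 seawater larvae. Aqu2.1.39254_001 stood at 342 CPM in seawater larva 7 and at 8.63 to 23.9 CPM in the other 8, against 2.1 to 23.9 CPM (median 9.37) in exposed larvae. Its log2 fold change was -2.10 ± 0.48 (SE; adjusted p = 0.00661, edgeR) and became -0.64 without that larva (adjusted p = 0.6, edgeR). With all 18 larvae fitted alone its adjusted p was 0.343 in edgeR. Aqu2.1.06371_001 had 239 and 223 CPM in seawater larvae 1 and 6 and at most 0.879 CPM in the other 7, against 0 to 2.47 CPM (median 0.646) in exposed larvae. The log2 fold change was -6.53 ± 1.63 (SE; adjusted p = 0.0169, edgeR), and the adjusted p was 0.207 without seawater larva 1, 0.0901 without the larvae of library C and 0.63 with total count as a covariate. Aqu2.1.01150_001 reached 43.1 and 40.7 CPM in seawater larvae 9 and 5, against at most 1.86 CPM in exposed larvae (log2 fold change -4.55 ± 1.29, SE; adjusted p = 0.0489, edgeR). Its call was lost on leaving out any 1 of 14 of the 18 larvae, with an adjusted p up to 0.18 in edgeR, and without the larvae of library C (0.15, edgeR). Aqu2.1.35939_001 had 0 to 8.59 CPM (median 1.31) in exposed larvae, against 1.6 to 98.9 CPM (median 13) in seawater larvae (log2 fold change -3.69 ± 0.81, SE; adjusted p = 0.00488, edgeR), and an adjusted p in edgeR of 0.0531 without seawater larva 1 and 0.0505 without the larvae of library C.

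A transcript already known from these data to differ with A. fragilissima at other ages did not pass the test at 3 h. Aqu2.1.42041_001 had 1.38 to 35.1 CPM (median 15.8) in exposed larvae, against 0.879 to 23.5 CPM (median 3.72) in seawater larvae. Its log2 fold change came to 1.50 ± 0.53 (SE; adjusted p = 0.144, edgeR). At 1.5, 5 and 8 h its log2 fold changes were 2.80, 3.11 and 3.05, each past the threshold. The test of the 3 h effect against the mean of the other ages gave a difference of -1.48 ± 0.60 (SE; adjusted p = 0.759, edgeR), so the effect at 3 h was not shown to be smaller. Seawater larva 7 had 23.5 CPM, against at most 11.7 CPM in the other 8. The missed call at 3 h depended on that larva. Of the 18 fits that left out 1 larva, 17 missed the threshold, and the fit without seawater larva 7 passed it.

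The same cue was tested at 3 other induction ages on separate exposed and separate seawater larvae. None of the 18 larvae enters those contrasts, but all animals shared 1 fit, so the other larvae bore on the spread and the library term behind the lists. The risen features were mostly higher there too. At 1.5 h, 88 of the 95 had a positive fold change with a median of 0.57. There 20 were called higher, against 52 of all 14950 features tested. At 5 h, 80 were positive with a median of 0.44 and 5 were called higher, against 14 of all tested. At 8 h, 74 were positive with a median of 0.18 and 4 were called higher, against 16 of all tested. The fallen features were negative in 82, 75 and 69 of 85 at 1.5, 5 and 8 h, with medians of -0.44, -0.28 and -0.12. Of them 19, 8 and 0 were called lower, against 106, 33 and 1 of all features tested. Over all features tested the medians were -0.02, 0.01 and -0.01. Called the opposite way at any of these ages were 0 of the 180. Calls in either direction made up only 1.06%, 0.314% and 0.114% of all features tested, so nothing is read from that 0.

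The sign seen at 3 h recurred at all 3 other ages for 63 of the 95 risen and 60 of the 85 fallen features, 66.3% and 70.6%, against 22.7% of all features tested. With each age fitted alone, 76 of 80 risen features tested at 1.5 h were positive, 71 of 77 at 5 h and 62 of 76 at 8 h. A call in the same direction at 1 or more of the other ages was found for 22 risen and 25 fallen features, 23.2% and 29.4%, against 1.24% (186) of all tested. At 2 or more ages it was found for 6 risen and 2 fallen features, against 10 of all tested. Aqu2.1.30884_001 was the 1 feature of the lists called at all 4 ages, and is named here after its values were seen. It had 71.8 to 197 CPM (median 104) in larvae with A. fragilissima at 3 h, against 30.3 to 61.8 CPM (median 48.9) in seawater larvae, without overlap. Its log2 fold changes were 1.25, 1.30, 1.27 and 1.27 at 1.5, 3, 5 and 8 h, with adjusted p of 0.00812, 0.00561, 0.0165 and 0.0209 in edgeR. Leaving out any 1 of the 18 larvae kept its call at 3 h, with an adjusted p of at most 0.0193 in edgeR.

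Of the named transcripts, Aqu2.1.35485_001 was higher at 1.5 h (log2 fold change 1.26 ± 0.23, SE; adjusted p = 0.000594, edgeR) and at 5 h (1.01 ± 0.23, SE; adjusted p = 0.0222, edgeR), as was Aqu2.1.41895_001 (0.57 ± 0.15 and 0.66 ± 0.15, SE; adjusted p = 0.0372 and 0.0266, edgeR). Aqu2.1.20847_001 and Aqu2.1.11527_001 were called at 1.5 h with log2 fold changes of 0.64 and 0.70, and so were Aqu2.1.27111_001 and Aqu2.1.43680_001 with 3.72 and 3.79. Among the named falls, Aqu2.1.38354_001 and Aqu2.1.40981_001 were called at 1.5 h with -0.55 and -0.77, and Aqu2.1.26016_001 at 5 h with -0.65. At 8 h the known transcript Aqu2.1.42041_001 was the named one past the threshold.

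Whether an effect was particular to the 3 h age was tested by the difference between the effect at 3 h and its mean over the other ages. That difference was past the threshold for 1 of 14950 features (0.00669%), with 812 at an unadjusted p below 0.05 (edgeR), and for 11 features with DESeq2. The feature called in edgeR was Aqu2.1.10508_001, with a difference of 5.72 ± 1.14 on the log2 scale (SE; adjusted p = 0.0247, edgeR). Its fold changes at 1.5, 5 and 8 h were -2.68, 0.34 and -1.62, the negative ones in groups where 1 of 9 seawater larvae and 0 of 9 exposed larvae were high. For the other features of the lists no difference from the other ages was shown. Since the lists were chosen for a large effect at 3 h, all 180 had a difference in the direction of that choice, and nothing is read from it.

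**Figure D3:**
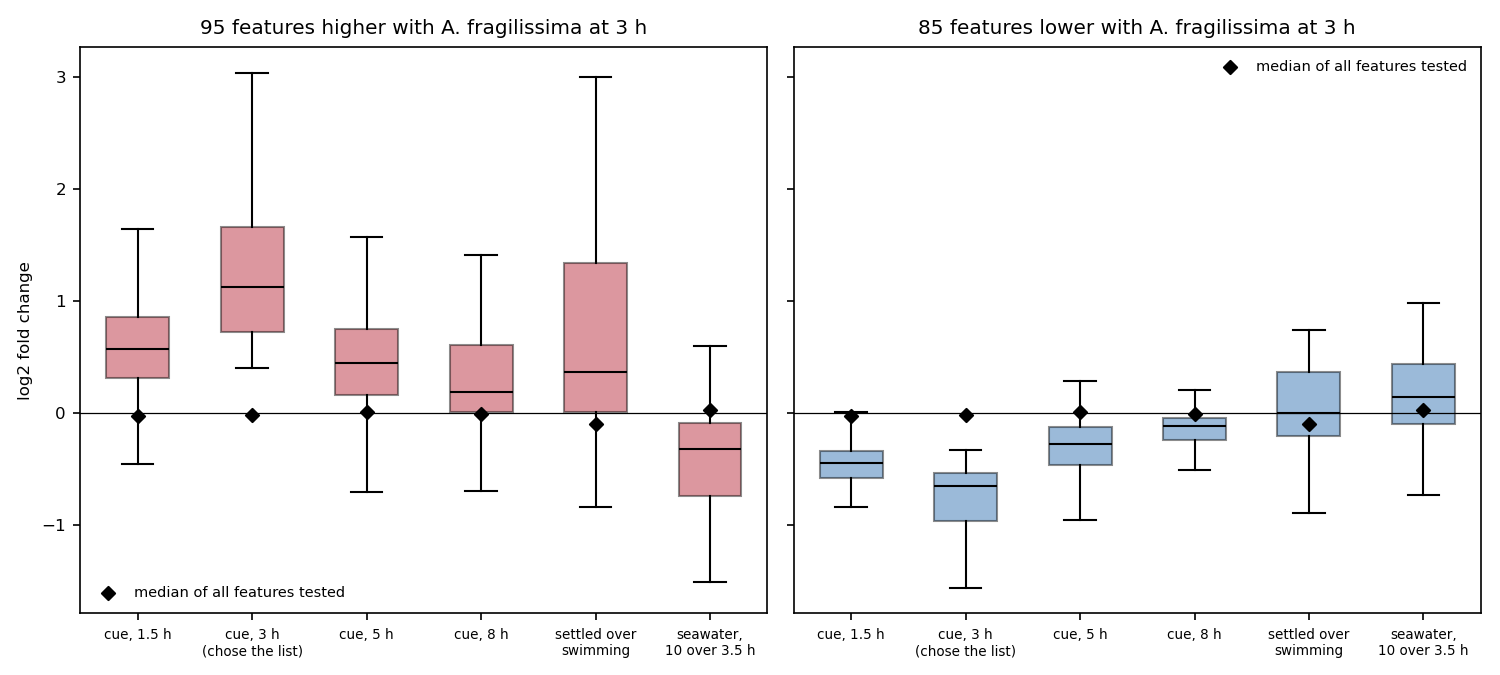
Log2 fold changes of the 95 risen (left panel) and 85 fallen features (right panel) in 6 comparisons: A. fragilissima over seawater at 1.5, 3, 5 and 8 h, settled over swimming animals, and seawater larvae of 10 h over those of 3.5 h. Boxes span the quartiles with the median as a line, whiskers reach to the last feature within 1.5 box lengths, features beyond them are not drawn, and diamonds are medians of all features tested. The 3 h boxes chose the lists. The risen list is positive at the other ages, with medians of 0.57, 0.44 and 0.18, and negative with age in seawater, at -0.32.

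Larvae given Mesophyllum sp. at 3 h were set beside the other groups. A. fragilissima against Mesophyllum sp. gave 30 called features (0.201%), 17 higher and 13 lower with A. fragilissima. Among the risen list 12 were higher, and among the fallen list 11 were lower. That comparison shares the 9 exposed larvae that chose the lists, so its counts are no separate evidence. Mesophyllum sp. against seawater, which shares the 9 seawater larvae, gave 0 called features in edgeR, with 853 at an unadjusted p below 0.05, and 13 in DESeq2. For Aqu2.1.20847_001 the means were 195 ± 43.3 CPM with A. fragilissima, 119.6 ± 18 CPM with Mesophyllum sp. and 103 ± 17.8 CPM in seawater (SD, n = 9 each). The difference between the algae was 0.69 ± 0.15 (log2, SE; adjusted p = 0.0171, edgeR). Aqu2.1.41895_001 averaged 419 ± 77.7 CPM with A. fragilissima, 255 ± 41.1 CPM with Mesophyllum sp. and 214 ± 49 CPM in seawater larvae (algae 0.71 ± 0.15, SE; adjusted p = 0.0141, edgeR). Aqu2.1.31166_001 averaged 75.7 ± 19.5 CPM with A. fragilissima, 132 ± 25.6 CPM with Mesophyllum sp. and 124 ± 30.4 CPM in seawater larvae (algae -0.82 ± 0.16, SE; adjusted p = 0.00319, edgeR). In these 3, larvae with Mesophyllum sp. lay nearer to seawater larvae than to larvae with A. fragilissima.

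By fitted log2 differences, the Mesophyllum larvae lay nearer to seawater larvae in 18 of the 28 named called features and nearer to larvae with A. fragilissima in the other 10, which was not tested. Aqu2.1.35939_001 was of the second kind, with means of 2.11 ± 2.83 CPM with A. fragilissima, 3.38 ± 3.4 CPM with Mesophyllum sp. and 26.3 ± 32 CPM in seawater (SD, n = 9 each). So was Aqu2.1.26016_001, with 1159.8 ± 229 CPM with A. fragilissima, 1237 ± 177 CPM with Mesophyllum sp. and 1624 ± 250.4 CPM in seawater (SD, n = 9 each). Aqu2.1.42730_001 averaged 35.1 ± 16.7 CPM with A. fragilissima, 15.2 ± 3.18 CPM with Mesophyllum sp. and 8.74 ± 2.4 CPM in seawater (SD, n = 9 each), and the difference between the algae missed the threshold (1.21 ± 0.31, SE; adjusted p = 0.0592, edgeR). Aqu2.1.38354_001 averaged 618 ± 119.5 CPM with A. fragilissima, 832 ± 91.1 CPM with Mesophyllum sp. and 1034 ± 143 CPM in seawater larvae (algae -0.41 ± 0.13, SE; adjusted p = 0.229, edgeR). Aqu2.1.27111_001, Aqu2.1.11527_001 and Aqu2.1.40981_001 also differed between the algae, with log2 differences of 4.62, 0.75 and -0.87, and so did Aqu2.1.42041_001, at 2.93 ± 0.57 (SE; adjusted p = 0.00324, edgeR).

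Settlement was examined by settled against swimming animals of both algae at 5 and 8 h, a contrast without the 18 larvae but from the same fit. Of the 95 features higher with A. fragilissima before settlement, 48 (50.5%) were higher and 5 lower in settled animals, against 16.9% higher and 17.1% lower over all features tested. Their median log2 fold change on settlement was 0.37, against -0.10 over all. The 85 fallen features showed 28 higher and 14 lower on settlement (32.9% and 16.5%), with a median of 0.00. Among named transcripts Aqu2.1.28512_001 and Aqu2.1.43680_001 had the greatest rises on settlement, 4.79 ± 0.49 and 4.16 ± 0.52 (log2, SE; adjusted p = 1.25e-15 and 1.59e-11, edgeR). Aqu2.1.42730_001 was 2.47 ± 0.20 higher (log2, SE; adjusted p = 3.65e-22, edgeR), and Aqu2.1.37223_001 and Aqu2.1.27111_001 were higher by 2.43 and 2.17. Aqu2.1.20847_001 went the other way, at -0.25 ± 0.10 (SE; adjusted p = 0.0371, edgeR), while Aqu2.1.35485_001 had -0.20 ± 0.15 (SE; adjusted p = 0.311, edgeR). Of the named falls, Aqu2.1.25555_001, Aqu2.1.40981_001, Aqu2.1.38354_001 and Aqu2.1.34860_001 were higher in settled animals, by 1.97, 0.61, 0.53 and 0.37, and Aqu2.1.35939_001 and Aqu2.1.44249_001 were lower, at -1.24 and -0.62. Library C held 25 of the settled animals, so this contrast depends on the library term. The 3 h comparison had 3 exposed and 0 seawater larvae in library C and uses the same term. The shares of the lists called on settlement are therefore not independent of it.

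Age was examined in seawater larvae of 10 h against those of 3.5 h, again a contrast without the 18 larvae from the same fit. These were the seawater larvae of the 8 h and 1.5 h groups, also set against A. fragilissima at those ages. The age contrast is therefore not independent of the cue contrasts at 1.5 and 8 h. Of the risen features 0 were higher and 21 (22.1%) lower in the older larvae, against 3.91% higher and 4.03% lower over all features tested. The median was -0.32, and 75 of 95 were negative. Of the fallen features 15 (17.6%) were higher and 4 lower, with a median of 0.14 and 56 of 85 positive. The signs with age in seawater were thus mostly opposite to those with the alga, more so in the risen list. Negative were 78.9% of the risen features, against 48.2% of all tested. Positive were 65.9% of the fallen features, against 51.8% of all tested. Aqu2.1.37223_001 and Aqu2.1.41895_001 were lower in the older larvae, with log2 fold changes of -3.58 ± 1.06 and -0.96 ± 0.15 (SE; adjusted p = 0.0192 and 2.16e-06, edgeR), and so was Aqu2.1.43432_001, at -0.34 ± 0.11 (SE; adjusted p = 0.0254, edgeR). Aqu2.1.35939_001, Aqu2.1.44249_001, Aqu2.1.43612_001, Aqu2.1.25555_001 and Aqu2.1.16116_001, all lower with the alga, rose with age by 3.52, 2.08, 1.81, 1.32 and 0.59. Higher on settlement and lower with age were 9 risen features (9.47%) and 1 fallen feature, against 1.12% (168) of all tested. In 32 risen and 29 fallen features neither settlement nor age was called, 33.7% and 34.1%, against 61.6% of all tested. The lists were better counted than the features at large, with median levels of 58.7 and 185 CPM against 13.1 CPM. Shares called here, on settlement and at the other ages were not matched for level.

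**Figure D4:**
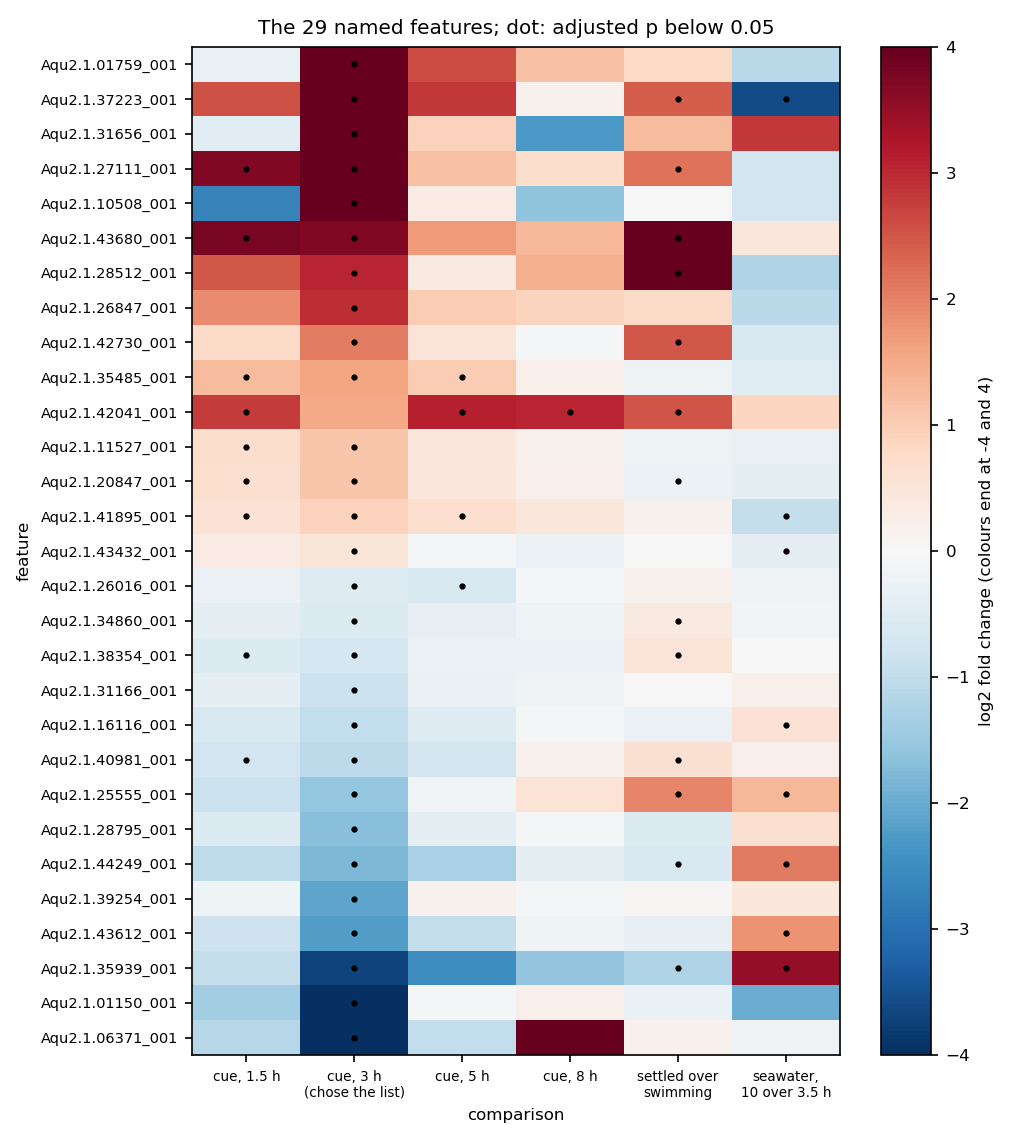
Log2 fold changes of the 29 named features (rows, ordered by the 3 h change) in the same 6 comparisons (columns); red is higher and blue lower in the group named first, colours end at -4 and 4, and a dot marks an adjusted p below 0.05. The 3 h column holds a dot in 28 rows by choice, the one without being Aqu2.1.42041_001, which has dots at the other 3 ages. On settlement the top rows are mostly red, and with age the fallen rows are mostly red.

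Each of the 27 larvae induced at 3 h was also given 3 indices, made from features called in contrasts that none of these larvae enter, though the spread and the library term are shared: the mean log2 CPM of the features that rose minus that of the features that fell. For the cue at the other ages, with 154 risen and 164 fallen features, the index was -1.70 ± 0.26 in larvae with A. fragilissima, -2.37 ± 0.24 with Mesophyllum sp. and -2.70 ± 0.28 in seawater (SD, n = 9 each). The lowest exposed and the highest seawater larva met at -2.10, and all other exposed larvae lay above all seawater larvae. Within library T the means were -1.73 with A. fragilissima and -2.79 in seawater, and within K -1.44 with A. fragilissima and -2.62 in seawater. For settlement the index was 0.597 ± 0.076 with A. fragilissima, 0.512 ± 0.075 with Mesophyllum sp. and 0.474 ± 0.069 in seawater. The groups overlapped, since seawater larva 4 reached 0.648. For age it was -1.87 ± 0.26 with A. fragilissima, -1.70 ± 0.19 with Mesophyllum sp. and -1.47 ± 0.20 in seawater (SD, n = 9 each), also with overlap. Of the cue features, 37 risen and 40 fallen were also among the 180, and the indices are given as a description without a test.

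**Figure D5:**
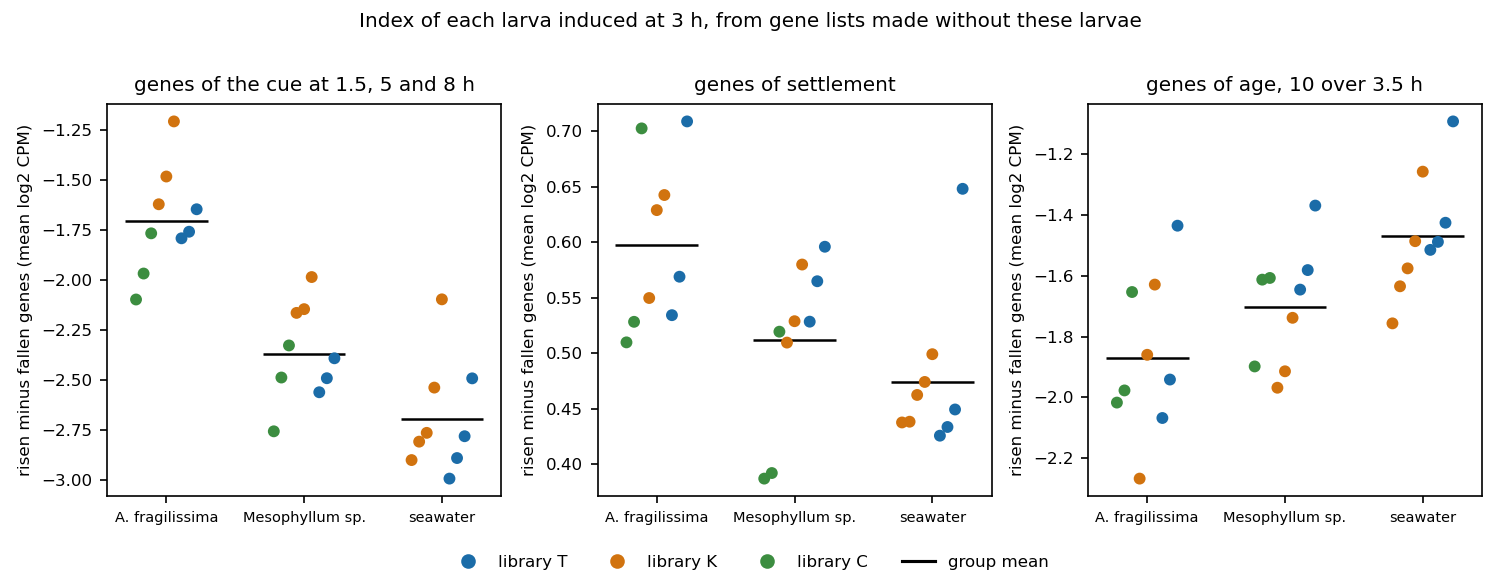
Index of each larva induced at 3 h (dot, coloured by library) from lists of features of the cue at the other ages (left), of settlement (middle) and of age in seawater (right); vertical axes are the mean log2 CPM of risen minus fallen features, and bars are group means. Larvae with A. fragilissima lie highest on the cue index (mean -1.70, against -2.70 in seawater), with those given Mesophyllum sp. between.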

How the data were processed

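A single table of counts was deposited by the authors. It lists 47411 features, of which 44016 are Aqu2.1 gene models and 3395 carry a different kind of identifier left unexplained by the labels, for 144 animals. Per the labels' protocols, reads from CEL-Seq2 libraries were split by barcode, run through the public CEL-Seq pipeline and assigned to the gene models of the species. Neither the aligner nor the genome build is given in the sources used here. Totals ran from 541737 to 4692279 counts per animal.

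The low-count filter of edgeR 4.0.16, applied by group, kept 14950 features with 99.4% of all counts, 424 of them of the other form. TMM scaling factors ran between 0.644 and 1.20. All 144 animals entered 1 robust quasi-likelihood fit in R 4.3.3 with a mean for each of 17 groups and a term for library. Contrasts were tested 2-sided with Benjamini-Hochberg adjustment over all features and called below 0.05. Standard errors were taken as the log2 fold change over the root of its F statistic. CPM values were taken on those scaled sizes, with no correction for library. For the indices, log2 CPM had a prior count of 2. Totals were compared by exact permutation in SciPy 1.17.1. The scripts were checked on simulated counts.

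Alternatives were DESeq2 1.42.0 as test and as scaling, other low-count filters, fits to fewer animals, no library term, single libraries, total count as a covariate, a replicate block, and leaving out each larva. The groups, contrasts, lists and the naming rule were chosen with earlier results of these data known. The rule took, from features called with the same sign in libraries T and K and a mean of at least 5 CPM in the higher group, the 8 largest rises and 8 largest falls, then the 4 smallest p and then the 2 highest means in each direction, plus Aqu2.1.42041_001. Of 25955 reference genes, 0 shared an identifier with the table, so no gene name, sequence or position is given.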

Additional observations from a re-analysis of the deposited data

Results flagged for a closer look

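In 13 of 60 sets of 9 larvae examined, 1 larva stood apart from its group by Dixon's test at the 95% level. The test's rate of 1 in 20 assumes normally distributed values. Most sets held CPM values, some of them mostly 0, of features named from these same larvae. The 13 are therefore not read against a rate expected by chance. Among larvae with A. fragilissima, larva 13 stood apart at 35.6 CPM of Aqu2.1.01759_001 (the other 8 at 0 to 17.9), at 71.2 CPM of Aqu2.1.27111_001 (0.689 to 26.6) and at 325 CPM of Aqu2.1.28512_001 (42.1 to 149.9). Larva 12 stood apart at 73.6 CPM of Aqu2.1.25555_001 (10.1 to 41.3), larva 4 at 51.5 CPM of Aqu2.1.31656_001 (0 to 24.98) and larva 5 at 16.4 CPM of Aqu2.1.43612_001 (1.38 to 7.12). Among seawater larvae, larva 7 stood apart at 342 CPM of Aqu2.1.39254_001 (8.63 to 23.9) and at 23.5 CPM of Aqu2.1.42041_001 (0.879 to 11.7), larva 1 at 66.4 CPM of Aqu2.1.43612_001 (9.67 to 22.2) and larva 9 at 93.2 CPM of Aqu2.1.35485_001 (31.1 to 55.4). The remaining seawater larvae so marked had few counts: larva 6 had 0.421 CPM of Aqu2.1.01759_001 (0 in the other 8), larva 4 had 1.06 CPM of Aqu2.1.37223_001 (0 to 0.421) and larva 8 had 2.13 CPM of Aqu2.1.43680_001 (0 to 1.06).

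The effect of A. fragilissima on Aqu2.1.10508_001 at 3 h differed from its mean effect at the other ages by 5.72 ± 1.14 on the log2 scale (SE; adjusted p = 0.0247, edgeR). It was high in 4 of 9 exposed and 0 of 9 seawater larvae at this age.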

How the results depend on the processing

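The count of 180 called features stayed within 1.5 times under DESeq2 size factors (184), other low-count filters (124 and 201), a fit to the 18 larvae alone (138, of which 77 were among the 180), no library term (174), no exposed larvae of library C (156), total count as a covariate (154) and without the features near the ceiling (175). It was 393 when only swimming larvae were fitted (184 higher, 209 lower; 171 shared) and 284 with DESeq2's test (168 higher, 116 lower; 165 shared; 3191 adjusted p not given by DESeq2). Within library T alone it was 14 and within library K 37, with fewer larvae in each. Leaving out 1 larva gave 119 (without exposed larva 6) to 229 (without seawater larva 4). Replicate numbers are shared by 6 pairs of larvae. Their deviations from the group means correlated by -0.06 to 0.15, and 3 of 12 larvae correlated best with their own number. For deviations from group and library means the correlations were -0.00693 to 0.0793, with 4 of 12 larvae best with their own number. So few larvae cannot decide whether the numbers pair them. With a replicate block on these 12 larvae 0 features were called in edgeR (965 at an unadjusted p below 0.05). The same 12 larvae with the library term in its place, a fit chosen after seeing the data, gave 16 calls (1037 unadjusted). The difference of the 3 h effect from other ages gave 2 calls without the library term and 11 with DESeq2. A. fragilissima against Mesophyllum sp. gave 46 with DESeq2 and 37 in a fit to the algae alone, and Mesophyllum sp. against seawater 13 with DESeq2. The cause of these differences was not tested. Of the 123 features with 1 sign at all ages, 113 had it with each age fitted alone and 119 with DESeq2 size factors. No named feature changed sign under any alternative run. For the 28 called ones this was largely set in advance. The naming rule asked for the same sign in libraries T and K, and the other runs refitted larvae that chose the features. Of the 28 named features called, 5 were called within library T, 3 within library K and, of the 19 tested, 0 with the replicate block. The largest folds rest on few counts, and a fold against a group near 0 depends on the prior count.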

Other observations

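Some called features had neighbouring identifiers. Of the 8428 pairs of tested features with consecutive numbers, 9 pairs were called on both sides, and in all 9 the features moved the same way, 3 pairs up and 6 down. Over all such pairs 55.1% had equal signs. Aqu2.1.34343_001 and Aqu2.1.34344_001 formed 1 such pair, with log2 fold changes of 1.15 and 1.22 (adjusted p = 0.000675 and 0.00844, edgeR). In another, Aqu2.1.40858_001 and Aqu2.1.40859_001 had -0.75 and -0.75 (adjusted p = 0.00175 and 0.00193, edgeR). Aqu2.1.42731_001, next to the named Aqu2.1.42730_001, had 0.94 (adjusted p = 0.00338, edgeR). Whether these are separate genes or pieces of 1 transcript was not tested, and these features are named after their values were seen.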
